A study of Homo sapiens with 2 samples.

Results

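Binding of Cdx1 and Cdx2 was examined at the loci of 5 brush border enzymes, namely SI, LCT, ALPI, ANPEP and DPP4, in chromatin immunoprecipitation-sequencing (ChIP-seq) peak lists. Each locus was the gene with about 20 kb on either side, and a peak belonged to a locus when its summit, the base with the most fragments, lay inside it. In GRCh37, the build named in the submitters' processing notes, the loci were SI at 164677000 to 164817000 of chromosome 3, LCT at 136525000 to 136615000 of chromosome 2, ALPI at 233301000 to 233346000 and DPP4 at 162829000 to 162951000 of the same chromosome, and ANPEP at 90308000 to 90379000 of chromosome 15. ALPI is read from the plus strand and the others from the minus strand. Together they held 75 of the 415628 summits in the lists, 32 of 196910 in the FLAG-wt-Cdx1 library and 43 of 218718 in the FLAG-wt-Cdx2 library, named Cdx1 and Cdx2 from here on.

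The cells were DLD1-TetOff, a human colon cancer line with a transactivator that doxycycline (DOX) keeps off, transfected with FLAG-tagged mouse Cdx1 or Cdx2 and grown out as single-cell clones. Both groups had been kept in 0.5 µg/mL DOX, were induced by removing it, and were fixed 20 h later, and the cells of 10 dishes were pooled into 1 library per factor. The sample descriptions speak of cells in DOX without the tagged protein, whereas the protocols state its withdrawal, and the libraries are taken here as induced. MNase-digested chromatin was precipitated with anti-FLAG beads, and 16452141 tags were kept for Cdx1 and 13781541 for Cdx2. There were no replicates, so that no difference between the factors was tested, and all intervals below cover counting error only. A library of input DNA and one of cells without the tagged protein were not analyzed here, and peak lists hold no RNA values against which the cell type could be checked.

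The brush border is the layer of microvilli on the apical face of enterocytes, and it carries the enzymes that finish digestion. Sucrase-isomaltase (SI) and lactase (LCT) split disaccharides, intestinal alkaline phosphatase (ALPI) removes phosphate groups, and aminopeptidase N (ANPEP) and dipeptidyl peptidase 4 (DPP4) shorten peptides. CDX1 and CDX2 are homeodomain proteins of the intestinal epithelium that favor AT-rich DNA, and the proximal promoters of SI and LCT are classic targets of CDX2.

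The promoter sequences of RefSeq (GRCh38.p14) were searched for 3 CDX-type motifs on both strands in the 250 bases before the start. The letters were TTTATG, a variant of it with a further T (TTTATTG), and a form with a CpG (TTTACG). None of the 3 contains another. Windows were found for 4 of the 5 genes, all except LCT, and ANPEP had 2 of them. The SI and DPP4 windows are shown as the window that held matches and, of those with none, the one of the gene with the only promoter summit. Both are written 5′ to 3′ on the strand of the gene, which is the minus strand, and capitals mark the motifs. SI is chr3:165078497-165078746 and DPP4 is chr2:162074216-162074465.
SI: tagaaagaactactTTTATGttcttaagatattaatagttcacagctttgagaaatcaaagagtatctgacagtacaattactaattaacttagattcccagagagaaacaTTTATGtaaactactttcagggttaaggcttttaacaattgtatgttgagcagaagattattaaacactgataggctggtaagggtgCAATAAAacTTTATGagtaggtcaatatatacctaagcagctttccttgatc
DPP4: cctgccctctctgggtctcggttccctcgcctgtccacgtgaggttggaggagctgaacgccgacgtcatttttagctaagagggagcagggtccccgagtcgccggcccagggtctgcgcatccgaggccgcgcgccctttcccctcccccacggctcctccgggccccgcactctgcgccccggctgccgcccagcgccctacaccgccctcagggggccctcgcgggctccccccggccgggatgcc
SI held 4 matches. TTTATG lay 236 to 231, 139 to 134 and 43 to 38 bases before the start, and TTTATTG lay on the opposite strand 52 to 46 bases before it. The windows of DPP4, ALPI and ANPEP held 0 matches. Among all 35116 windows of this length, 14.9% held at least 1 match, 9.64% held TTTATG, and 10 windows held 4 or more matches. The variant with a further T was in 3.67% of windows and the CpG form in 2.68%. The bases were 31.6% G or C at SI, 58.4% at ALPI, 73.6% at DPP4, and 74.0% and 64.4% at the upstream and downstream starts of ANPEP. These windows are of another build than the peaks and were not placed on them, and a match is a run of letters, not a bound site.

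The places of the summits were set beside the length that each part of the loci takes up. As no annotation of GRCh37 was used, each start was placed 20 kb inside the upstream edge of its locus, which is accurate to about 1 kb, and summits within 2 kb of it were called promoter summits. The promoters so defined take up 20 kb of the 468 kb, or 4.27%. With Cdx1, 0 of 32 summits were at a promoter (95% Wilson interval, 0 to 10.7%), and with Cdx2, 1 of 43 was, at DPP4 (2.33%; 0.412 to 12.1%). The rest of the genes as placed takes up 55.1% of the length and held 18 Cdx1 summits (56.2%) and 25 Cdx2 summits (58.1%). Upstream of the promoters, in 19.2% of the length, there were 9 Cdx1 summits (28.1%) and 5 Cdx2 summits (11.6%). Downstream of the genes, in 21.4% of the length, there were 5 (15.6%) and 12 (27.9%). For each of these parts and both libraries, the share of the length was inside the interval of the share of summits. The summit just outside the promoter limit was a Cdx2 summit 2.68 kb downstream of the LCT start, and the one just inside it was 1.64 kb downstream of the DPP4 start. With the start placed 1 kb further upstream, 0 Cdx2 summits were at a promoter, and with 1 kb further downstream, there were 2, at DPP4 and LCT. The Cdx1 count was 0 with either placement. Further RefSeq starts, 8224 bp downstream at ANPEP and 11.7 kb upstream at SI, were not placed. The one at ANPEP is that known from epithelium. The promoter counts therefore hold for the placed starts only. No peak under 5 fragments for Cdx1, or under 4 for Cdx2, was called at the genome-wide level of background, and weaker binding at the promoters would not be detectable at this depth.

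**Figure D1:**
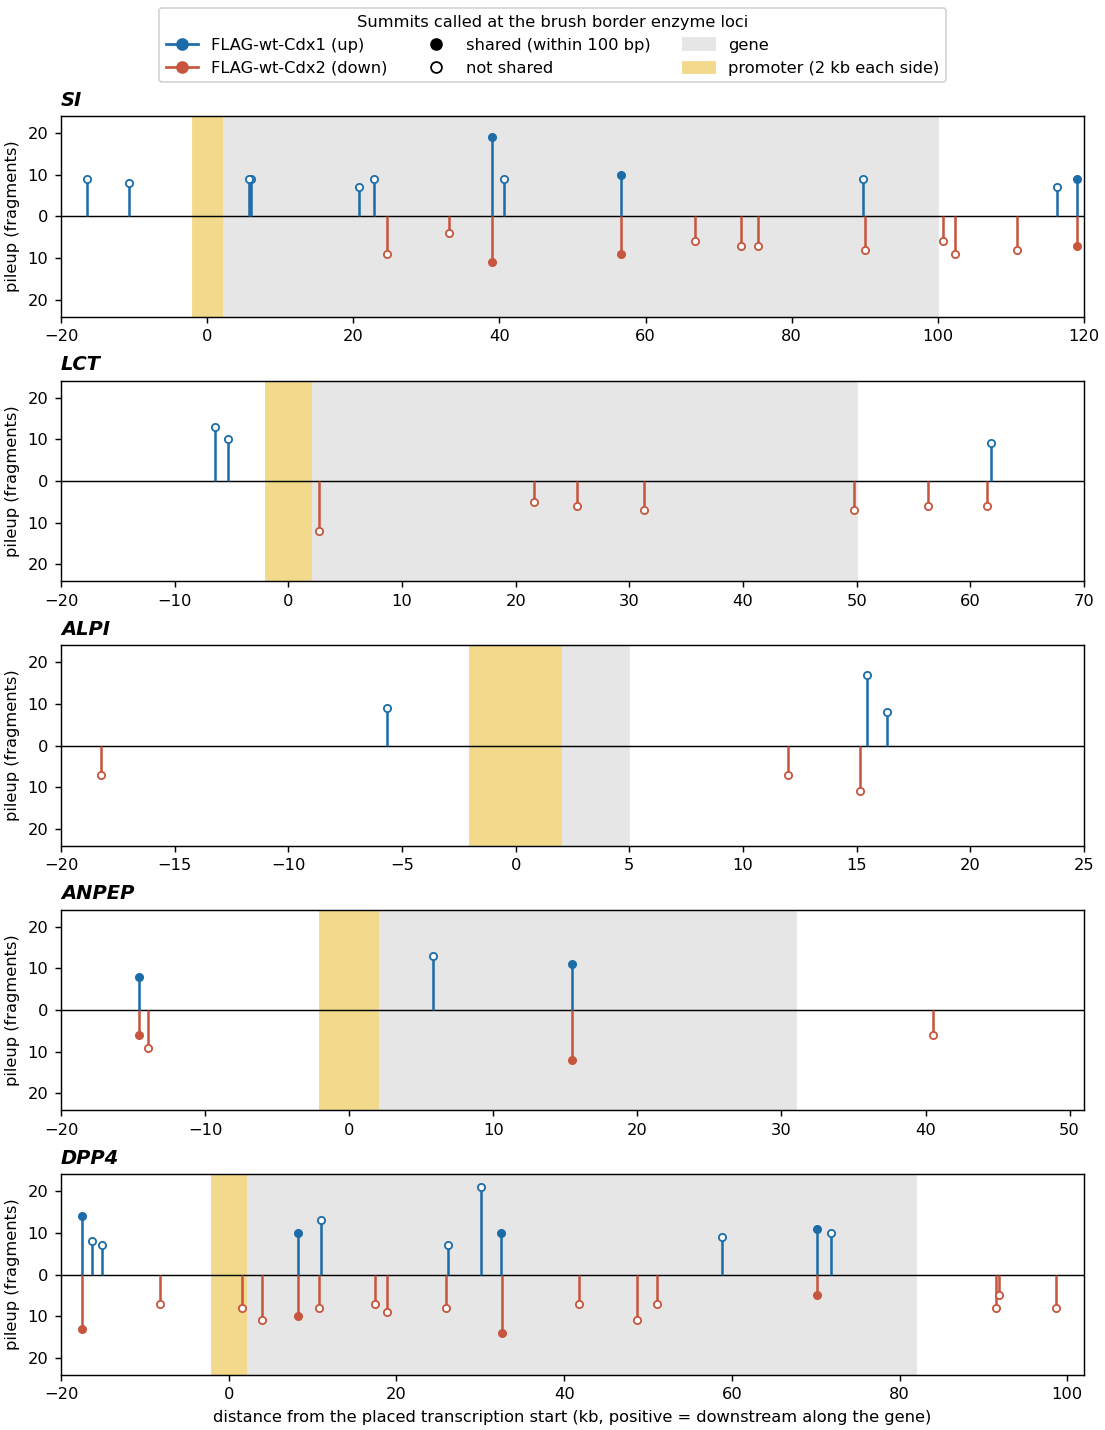
Each summit is drawn by its distance from the placed transcription start in kb (x axis, positive along the gene) and by its pileup in fragments (y axis), upward for Cdx1 and downward for Cdx2, with gray for the gene and yellow for 2 kb on each side of the start. Filled points have a summit of the other library within 100 bp, and the yellow bands hold only 1 summit, with Cdx2 at DPP4.

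At SI, both libraries had 12 summits in 140 kb. The 1393 windows of this length laid along chromosome 3, leaving out those with no summit of either library, had a median of 10 with Cdx1 (25th to 75th percentile, 7 to 13) and 11 with Cdx2 (9 to 14). The nearest Cdx1 summits were 5683 and 5999 bp downstream of the start, with 9 fragments each. The nearest Cdx2 summit inside the locus was 24.6 kb downstream, also with 9. Upstream of the start and inside the locus, 2 summits were called with Cdx1, at 10.7 kb (8 fragments) and 16.4 kb (9 fragments), and 0 with Cdx2. A Cdx2 summit of 10 fragments at 164817486 lay just past the upstream edge of the locus and was not counted. It was nearer to the start than the one at 24.6 kb. In RefSeq, the span of SI reaches 11.7 kb further upstream than the start of the window printed above. This more distant start was not placed on the lists. By these distances, the Cdx1 summit 10.7 kb upstream lies near it and might fall within a promoter there. The promoter count at SI thus holds for the placed start only.

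At SI, 3 of the 12 summits of each library were shared, that is, had a summit of the other library within 100 bp, as did 29.2% of all Cdx1 peaks and 26.3% of all Cdx2 peaks. The strongest peak was in the gene, 39.0 kb downstream of the start, and was found with both factors. The Cdx1 summit at 164758045 had 19 fragments (95% exact Poisson interval, 11.4 to 29.7), a fold enrichment over the local background of 11.1 and a −log10 q of 16.6. Its pileup was above that of 95.7% of the Cdx1 peaks. The Cdx2 summit lay 11 bp away at 164758056, with 11 fragments (5.49 to 19.7), a fold enrichment of 7.08 and a −log10 q of 7.59, above 80.5% of its list. Scaled to kept tags, the Cdx1 pileup was 1.45 times that of Cdx2, with an interval of 0.654 to 3.37 that includes equality. Further shared pairs were 56.6 kb downstream of the start, where 10 and 9 fragments were piled up at summits 1 bp apart, and 119 kb downstream, beyond the gene, where there were 9 and 7. The remaining SI summits had 7 to 9 fragments with Cdx1 and 4 to 9 with Cdx2, and 4 is the lowest pileup in that list.

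At LCT, 0 summits were shared, and near the start the libraries had summits on different sides of it. With Cdx1, 3 summits were called in 90 kb, and 86.8% of the 2634 windows of this length on chromosome 2 held more. Cdx2 had 7, near the window median of 8. The Cdx1 summits were all outside the gene. Upstream of it, 13 fragments were piled up 6.44 kb from the start at 136601441 (fold enrichment 6.58, −log10 q 7.58, above 80.2% of peaks) and 10 fragments 5.28 kb from it at 136600283 (fold enrichment 5.30). The remaining one, with 9 fragments, was past the far end of the gene.

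Cdx2 had 0 summits upstream of LCT, 5 in the gene and 2 beyond it. The highest, at 136592322, had 12 fragments (interval, 6.20 to 21.0), a fold enrichment of 6.03 and a −log10 q of 6.40, above 86.1% of Cdx2 peaks. It was 2.68 kb downstream of the start and 7961 bp from the nearest Cdx1 summit. The other 6 had only 5 to 7 fragments, of which the one at 136533530 came closest to a Cdx1 summit, at 308 bp.

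ALPI is the shortest of the genes, and no summit of either library was inside it. Both libraries had 3 summits in 45 kb, where the 5216 windows of this length had medians of 3 with Cdx1 and 4 with Cdx2. The strongest lay past the gene. With Cdx1, 17 fragments (interval, 9.90 to 27.2) were piled up at 233336452, 15.5 kb downstream of the start, with a fold enrichment of 8.46 and a −log10 q of 11.7, above 93.2% of peaks. A Cdx2 summit of 11 fragments (5.49 to 19.7) and a fold enrichment of 5.82 was 316 bp closer to the gene and thus not shared. The next protein-coding gene on this side in RefSeq is ECEL1, and the peaks were not assigned to either gene. The local background at these summits was 1.41 times the genome-wide level with Cdx1 and 1.53 times with Cdx2. The part of this background in the result was not tested. Upstream, Cdx1 had 1 summit 5.68 kb from the start with 9 fragments, and Cdx2 had 1 at 18.3 kb with 7.

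In the 71 kb of ANPEP, 3 summits were called with Cdx1 and 4 with Cdx2, against medians of 5 and 6 over 1115 windows of chromosome 15 and at their 25th percentiles. In each library 2 were shared, or 66.7% of the Cdx1 summits, with an interval of 20.8 to 93.9% that includes the 29.2% of the list, and 50.0% of the Cdx2 summits (15.0 to 85.0%, list 26.3%). In the gene, 15.5 kb downstream of the start, the Cdx1 summit at 90343540 had 11 fragments (interval, 5.49 to 19.7) and the Cdx2 summit at 90343567 had 12 (6.20 to 21.0). Their fold enrichments were 6.67 and 7.32, and the scaled ratio of Cdx1 to Cdx2 was 0.768 (0.307 to 1.90). The Cdx2 summit was the highest of that library at ANPEP. The other shared pair, 14.6 kb upstream, was weak in both, with 8 and 6 fragments.

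The highest Cdx1 summit at ANPEP was in the gene as placed, 5.80 kb downstream of the placed start, at 90353204. It had 13 fragments (interval, 6.92 to 22.2), a fold enrichment of 7.79 and a −log10 q of 9.28, and the nearest Cdx2 summit was 9637 bp away. ANPEP is known to be read from an upstream start in myeloid cells and from a downstream one in epithelium. In RefSeq, these starts are 8224 bp apart. Only the upstream start corresponds to the placed one, and the downstream start was not placed on the lists. By these distances, the Cdx1 summit at 5.80 kb lay between the starts, upstream of the epithelial one. The other Cdx2 summits had 6 and 9 fragments.

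DPP4 had 9.02 summits per 100 kb with Cdx1, where SI had 8.57, and 13.9 with Cdx2, where SI again had 8.57. The 11 Cdx1 summits were near the median of 9 over 1947 windows of 122 kb on chromosome 2, whereas the 17 Cdx2 summits were more than in 89.3% of these windows. The Cdx2 peaks had a median of 8 fragments, as did their list. Of them, 4 had a −log10 q of at least 5, or 23.5%, where 29.0% of all Cdx2 peaks did (interval at DPP4, 9.56 to 47.3). Of the 11 Cdx1 peaks, 6 did, or 54.5%, where 52.2% of all Cdx1 peaks did. Counting only these peaks, Cdx1 had 4.92 per 100 kb at DPP4 (6 peaks) and 5.71 at SI (8 peaks). Cdx2 had 3.28 and 2.86, from 4 peaks each. These counts are too few to order the loci.

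The promoter summit of DPP4 had the median pileup of its list. It was called with Cdx2 at 162929362, 1.64 kb downstream of the start, with 8 fragments (interval, 3.45 to 15.8), a fold enrichment of 4.96 and a −log10 q of 4.08, above 44.8% of peaks. The nearest Cdx1 summit was 6576 bp away. The next Cdx2 summit along the gene, at 3.94 kb, had 11 fragments.

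The strongest DPP4 summits were in the gene, about 30 kb from the start, but those of the libraries did not coincide. The Cdx1 summit at 162900951 had 21 fragments (interval, 13.0 to 32.1), the most of all 75 summits, with a fold enrichment of 8.55 and a −log10 q of 13.6, above 97.2% of peaks. It lay 2507 bp from the nearest Cdx2 summit. The local background there was 1.97 times the genome-wide level, the highest at any of the 75 summits, and its part in the pileup was not tested. The highest Cdx2 summit, at 162898444, had 14 fragments (7.65 to 23.5), a fold enrichment of 7.33 and a −log10 q of 8.82, above 92.4% of peaks. It was shared with a Cdx1 summit of 10 fragments 37 bp away.

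Of the 4 shared pairs of DPP4, the one with the most fragments after scaling was upstream, 17.5 kb from the start. The Cdx1 summit at 162948491 had 14 fragments (interval, 7.65 to 23.5) and the Cdx2 summit at 162948461 had 13 (6.92 to 22.2). Their fold enrichments were 7.32 and 6.49, and the scaled ratio was 0.902 (0.393 to 2.08). The other pairs were in the gene, with 10 fragments in both libraries 8.21 kb from the start, and 11 with Cdx1 and 5 with Cdx2 at 70.2 kb.

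**Figure D2:**
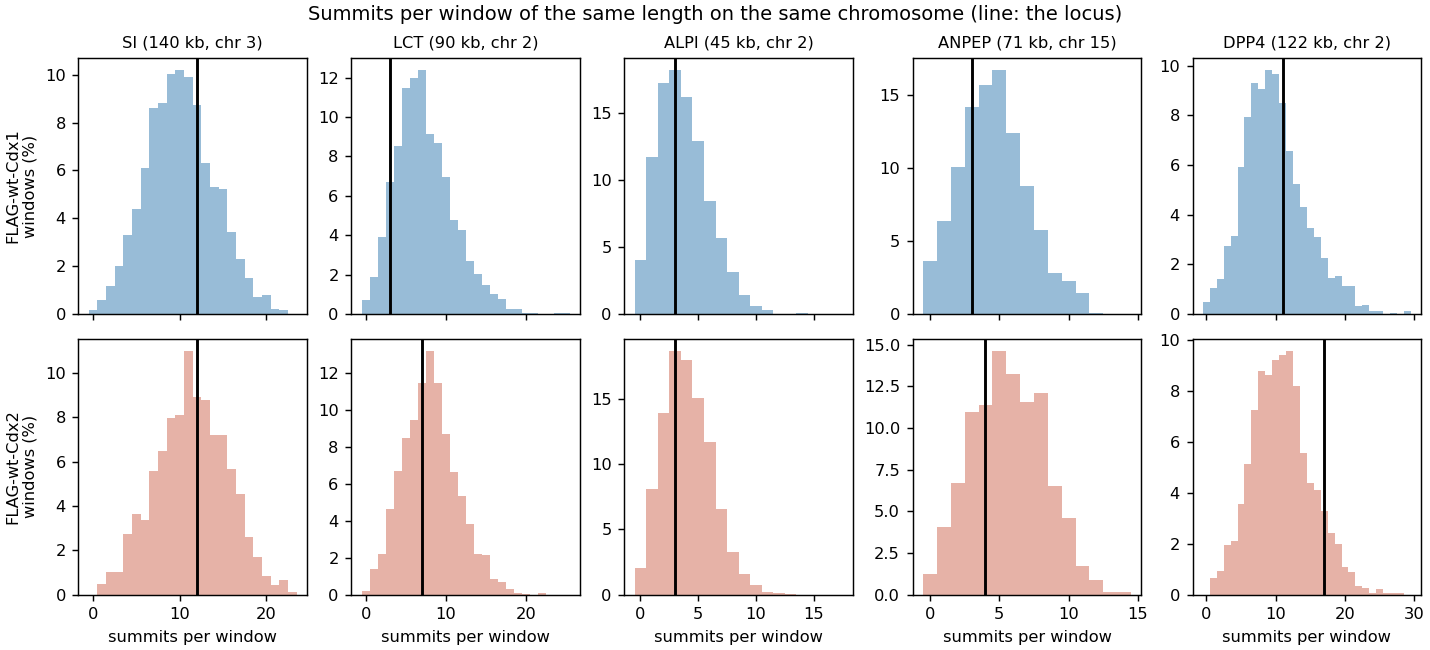
Histograms give the percent of windows (y axis) by their number of summits (x axis), for windows of the length of each locus on its chromosome, in Cdx1 (upper row) and Cdx2 (lower row), and the black line is the locus. The Cdx1 line of LCT, at 3, is on the low side, and the Cdx2 line of DPP4, at 17, is on the high side.

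Sharing at these loci was near that of the whole lists. A Cdx2 summit was within 100 bp of 9 of the 32 Cdx1 summits, or 28.1% (95% Wilson interval, 15.6 to 45.4), against the 29.2% of the whole list. Conversely, 9 of the 43 Cdx2 summits were shared, or 20.9% (11.4 to 35.2), against the 26.3% of its list. The pairs were 4 at DPP4, 3 at SI and 2 at ANPEP, with 0 at LCT and 0 at ALPI, where 3 Cdx1 summits each were too few to tell these shares from the background. The 2 pairs nearest to the limit on its inner side had summits 50 and 63 bp apart, and the nearest on its outer side were 137 and 200 bp apart, at DPP4 and SI. In all, 5 pairs were 137 to 316 bp apart, and the remaining 18 unshared Cdx1 summits had no Cdx2 summit within 1 kb.

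At the 9 shared pairs the pileups of the libraries could not be told apart. The ratio of Cdx1 to Cdx2, scaled to kept tags, ran from 0.598 to 1.84 with a median of 0.931, was above 1 in 4 pairs and below it in 5, and its interval included 1 in each pair. The widest interval, at the DPP4 pair 70.2 kb from the start, was 0.590 to 6.77, so that differences of several fold were not detectable at this depth. In 4 pairs the −log10 q was at least 5 in both libraries, in 3 pairs in only 1 of them, and in 2 pairs in neither.

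The strength of the summits was also near that of common peaks, although by pileup the Cdx2 median was below that of its list. The median pileup was 9 fragments with Cdx1 and 7 with Cdx2, against 9 and 8 over the whole lists, and the median fold enrichment was 5.56 and 4.72, against 5.33 and 4.72. The median summit was thus above 31.9% of Cdx1 peaks and 24.3% of Cdx2 peaks by pileup, where the median peak of the lists, with ties not counted as lower, was above 31.9% and 44.8%. A pileup above that of at least 90% of the list was reached by 3 of 32 Cdx1 summits (background of the list, 8.67%). They were 1 each at SI, ALPI and DPP4. With Cdx2, 1 of 43 summits reached it, at DPP4 (background, 7.62%). The Cdx2 summit of 13 fragments at DPP4, above 89.8% of its list, fell just short. A −log10 q of at least 5 was reached by 21 Cdx1 summits, or 65.6% (interval, 48.3 to 79.6; background, 52.2%), and by 12 Cdx2 summits, or 27.9% (16.7 to 42.7; background, 29.0%). By gene, these were 8 and 4 at SI, 3 and 1 at LCT, 2 and 1 at ALPI, 2 and 2 at ANPEP, and 6 and 4 at DPP4, in the order Cdx1 and Cdx2.

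**Figure D3:**
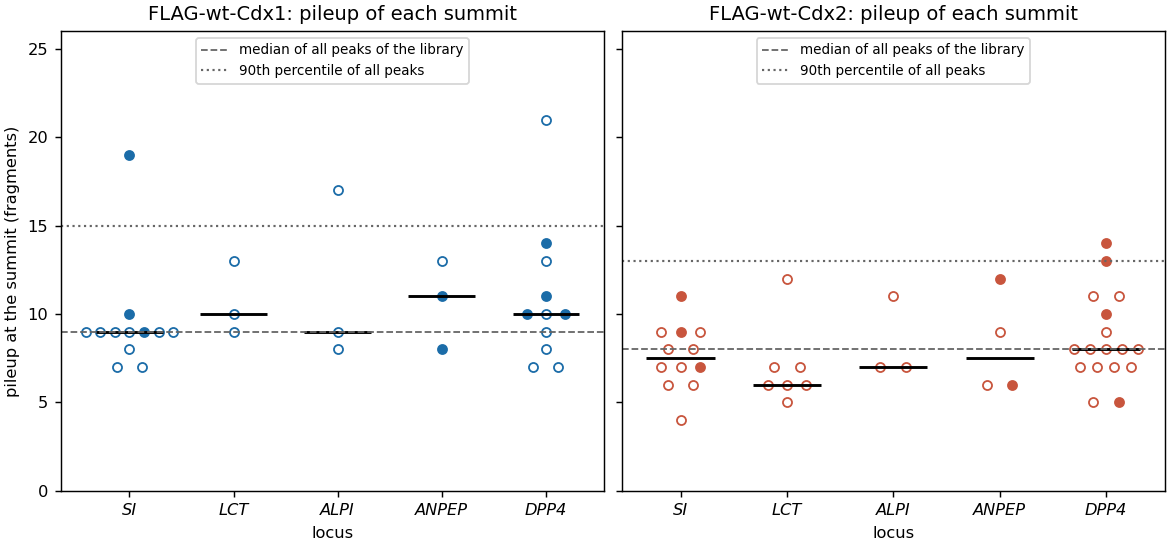
Each point is the pileup in fragments (y axis) of a summit at the locus on the x axis, filled where shared, with a black bar at the median of the locus and lines at the median (dashed) and 90th percentile (dotted) of all peaks of the library. Only the Cdx1 summits of 19 fragments at SI, 17 at ALPI and 21 at DPP4, and the Cdx2 summit of 14 at DPP4, are above the dotted lines.

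The length and spacing of the peaks were also set beside those of the lists. Peaks of the shortest length that can be called, the estimated fragment of 131 bp with Cdx1 and 136 bp with Cdx2, made up 7 of 32 (21.9%; background, 23.5%) and 9 of 43 (20.9%; background, 28.0%). Another summit of the same library lay within 1 kb of 4 Cdx1 summits (12.5%; background, 14.0%) and 4 Cdx2 summits (9.30%; background, 12.8%). The median local background was 1.02 times the genome-wide level with Cdx1 and 1.00 with Cdx2, against 1.17 and 1.08 over all peaks.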

How the data were processed

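Titles gave the factor of each library, FLAG-wt-Cdx1 (Cdx1) or FLAG-wt-Cdx2 (Cdx2). Reads were prepared with bcl2fastq 1.8.3, cutadapt 1.1 and Trimmomatic 0.32, per the submitters' processing notes. The aligner is not given in the sources used here. In each library the authors ran MACS 2.0.10.20131216 to find peaks, without a control, at a q-value cutoff of 0.05 and with 1 tag kept per position. The deposited lists give the pileup signal at the summit in fragments, not scaled to depth, a −log10 q-value beside its −log10 p-value, and the fold enrichment as a ratio of pileup to local background, each with 1 added. Of the tags, 95.3% and 94.8% were kept.

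The members and loci were chosen with earlier results of these data known. The text names each promoter summit, the highest summit of each library and the strongest shared pair of each gene. The local background was recovered from pileup and fold enrichment. A percentile is the percent of a list whose pileup is lower. Wilson, exact Poisson and exact conditional intervals are at 95%. The search for shared summits was run on a simulated list of slightly shifted Cdx1 summits, scoring only isolated ones. This checked the code, not how much sharing arises by chance. The motifs were meant for the sequence under the summits and were applied to RefSeq promoters, as no genome of the build was used here. For the same reason, the other brush border hydrolases planned for counting were not analyzed here. Values were computed in Python 3.11.15 (scipy 1.17.1, pandas 2.3.3, numpy 2.4.6) and plotted with matplotlib 3.10.9.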

Additional observations from a re-analysis of the deposited data

How the results depend on the processing

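The number of summits in the 5 loci depended on the flank and the threshold. With 10 kb on each side it was 21 for Cdx1 and 34 for Cdx2, and without a flank 18 for Cdx1 and 26 for Cdx2. Keeping peaks of −log10 q 5 or more left 21 and 12, so that Cdx1 then had more. The same held over the whole lists, where 102753 Cdx1 peaks (52.2%) and 63403 Cdx2 peaks (29.0%) were left. A minimum fold enrichment of 5 left 24 and 18, where Cdx1 again had more. The share over the lists was not computed for this threshold, but the median fold enrichment was 5.33 in the Cdx1 list and 4.72 in the Cdx2 list. The median peak thus passed it in the Cdx1 list only, so that the change is not particular to these loci. Promoter summits stayed at 0 for Cdx1 under the 6 alternatives run, none of which used the further RefSeq starts of SI and ANPEP. For Cdx2 there were 0 within 1 kb, 3 within 5 kb, 0 with a −log10 q of at least 5, 0 with the start 1 kb further upstream and 2 with it 1 kb further downstream. Both shifts of the start were chosen after seeing the data. The median percentile of the Cdx1 summits was 55.7 by fold enrichment, 50.2 by −log10 q and 15.5 among peaks with a −log10 q of at least 5. By pileup it was 31.9, as for the median peak of the list. List medians for these alternatives were not computed, and ties were again not counted as lower. The lower counts follow from fewer peaks being counted, and the cause of the other changes was not tested. The share of shared summits stayed inside its interval under all alternatives run, from 19.0% to 37.5% for Cdx1 and from 17.6% to 33.3% for Cdx2. List shares were computed only for summits within 100 bp and without a stricter q. For other distances, overlaps and the stricter q, the comparison with the lists was therefore not repeated. No paired analysis was possible because each factor had only 1 library. Depth limits these loci to peaks of at least 4 or 5 fragments.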
